A study of Mus musculus with 9 samples.

Results

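The genes described here encode 9 molecules by which leukocytes attach to vessel walls: the immunoglobulin-family ligands Icam1, Icam2 and Vcam1, the selectins Sele and Selp, the selectin ligand Selplg, and the integrin subunits Itgal, Itga4 and Itgb2. They were chosen by gene symbol, and all 9 were found among the 27179 genes of the deposited table. A gene was tested when its normalized counts averaged 10 or more, which 8 of the 9 did and Sele did not. Poly(A) RNA was sequenced from pieces of the m-lobe of the liver of 9 C57BL/6J mice labelled wild type and kept on normal chow. All mice were injected retro-orbitally at 17 months with AAV8-TBG-saCas9 at 3e11 vector genomes per mouse, and the liver was taken 3 weeks later. In the control group the vector carried a guide RNA to Rosa26 (sgRosa26, n = 4), a site cut as a neutral control, and in the other a guide RNA to Ccnd1 (sgCcnd1, n = 5), the gene of cyclin D1. The series title names loss of Ccnd1 in hepatocytes and inflammatory signalling as the question. Both groups thus carried vector, nuclease and a guide, and no uninjected mice are among the samples.

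A leukocyte that leaves the blood first rolls on selectins and then arrests through integrins. E-selectin (Sele) and P-selectin (Selp) are shown by activated endothelium, and P-selectin also by platelets, and both bind sugars on the leukocyte protein PSGL1, the product of Selplg. Arrest follows when the integrin LFA1, made of the subunits Itgal and Itgb2, grips ICAM1 or ICAM2, or when VLA4, made of Itga4 with Itgb1, grips VCAM1. In the liver much of this takes place in the sinusoids, whose endothelium carries ICAM1 and little selectin, and Kupffer cells also carry adhesion molecules. TBG is a hepatocyte promoter, and the cells that gave the reads of these genes were not separated. In bulk RNA, fewer cells of a type and less RNA per cell cannot be told apart.

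Libraries are lettered in the order of the table's columns, A to D for sgRosa26 and E to I for sgCcnd1. Depth ran from 10.8 to 20.2 M reads assigned to genes (M, mega). Ccnd1, the targeted gene, had 625 to 867 normalized counts in sgRosa26 and 325 to 428 in sgCcnd1, and it was the only gene that passed the test between groups (log2 fold change -1.03, limma adjusted p = 0.0116). It missed the threshold when B, D, F, H or I was left out, with an adjusted p of 0.0611 without H. Library H of sgCcnd1 stands apart: Ddx3y, a Y-linked gene, had 2.00 normalized counts there and 810 to 1154 in the other 8 libraries, while Xist was at most 3.92 in any library. The labels do not give the sex of the mice. Differences of the 8 genes are given with and without H, and so are some other values. Unless stated, a group result given once comes from all 9 libraries and can differ without H. None of the 8 hepatocyte markers examined was at 0, as a liver label requires.

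Upstream sequence was at hand for 4 of the 9 genes, Icam1, Sele, Selp and Itga4, in the RefSeq promoter table of build GRCm38.p6. Those of Icam1, which had the smallest p of the 9 genes, and of the selectins Sele and Selp, which lie close together on chromosome 1, are shown because cytokines are known to act on such genes through their promoters. Each run holds the 250 bases before the start that the RefSeq table gives, 5′ to 3′ on the plus strand. Capitals mark matches to the interferon-gamma activated site (GAS, spelled TTCNNNGAA, the same on both strands) and to GAGGAA, a core bound by ETS factors, on either strand. The RefSeq start of Icam1 lies upstream of the GENCODE start given with its values, while those of Sele, Selp and Itga4 are the same in both.
Icam1, chr9:21015690-21015939: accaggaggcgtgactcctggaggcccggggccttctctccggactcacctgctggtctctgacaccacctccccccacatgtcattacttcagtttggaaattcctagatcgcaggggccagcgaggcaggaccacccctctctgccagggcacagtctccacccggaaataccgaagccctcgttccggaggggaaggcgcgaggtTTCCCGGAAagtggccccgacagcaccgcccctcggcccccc
Sele, chr1:164047984-164048233: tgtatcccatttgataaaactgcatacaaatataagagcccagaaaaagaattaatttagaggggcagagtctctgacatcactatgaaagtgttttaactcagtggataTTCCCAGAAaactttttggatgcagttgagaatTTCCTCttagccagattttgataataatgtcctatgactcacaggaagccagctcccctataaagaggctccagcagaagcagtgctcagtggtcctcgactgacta
Selp, chr1:164115014-164115263: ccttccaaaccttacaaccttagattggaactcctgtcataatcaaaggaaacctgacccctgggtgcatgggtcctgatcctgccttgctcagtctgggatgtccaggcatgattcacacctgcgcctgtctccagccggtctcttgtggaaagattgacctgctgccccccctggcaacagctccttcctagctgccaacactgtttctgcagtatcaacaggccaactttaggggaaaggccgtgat
Icam1 held a GAS match from 34 to 42 bases before its RefSeq start, and Sele held a GAS match from 132 to 140 bases and a GAGGAA match from 102 to 107 bases before its start. Selp and Itga4 held neither. Of 32851 upstream windows of the same length, 7.02% held the GAS letters and 23.3% GAGGAA. For the kappaB motif of NF-kB only a strict consensus was searched, which 7.25% of all windows held and none of these 4. It leaves out other forms, among them tggaaattcc, the known kappaB site of ICAM1, which the Icam1 run does hold. These are matches of letters only.

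Measured per kilobase of annotated exon, Icam1 was the most abundant of the 9 genes in the controls, at 74.2 ± 14.9 normalized counts per kb (SD, n = 4), and Sele the least, at 0.890 ± 0.466. Between them came Itgb2 at 51.0 ± 6.88, Itgal at 32.5 ± 2.17, Vcam1 at 21.3 ± 3.70, Icam2 at 18.02 ± 4.56, Itga4 at 11.8 ± 0.632, Selp at 7.85 ± 0.501 and Selplg at 6.63 ± 1.54, all per kb. The ranges over the 4 control libraries overlapped for the neighbours Icam1 and Itgb2, Vcam1 and Icam2, Icam2 and Itga4, and Selp and Selplg. They did not overlap between Itgb2 and Itgal, Itgal and Vcam1, Itga4 and Selp, or Selplg and Sele. The order in sgCcnd1 was the same but for Icam2 and Vcam1, which changed places at 16.2 and 16.0 normalized counts per kb. The length used is the union of all annotated exons, so a gene with long minor transcripts, such as Itga4 with 13978 exon bases, is set low on this scale.

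**Figure D1:**
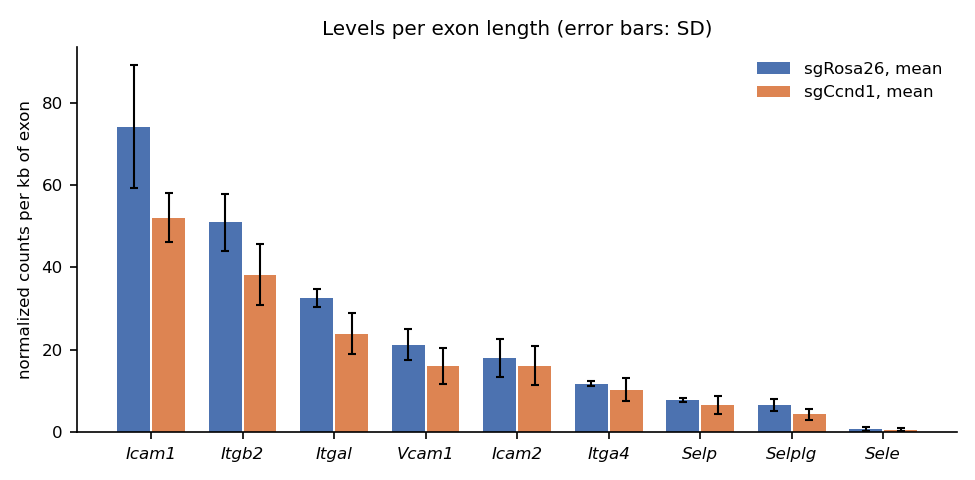
Mean normalized counts per kilobase of exon (vertical axis) of the 9 adhesion genes in sgRosa26 (n = 4) and sgCcnd1 (n = 5), with the SD over libraries as error bars. Icam1 and Itgb2 lead in both groups and Sele lies near 0 in both.

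All 8 genes tested had a lower mean in sgCcnd1 than in sgRosa26, where 47.1% of the 12993 genes tested were lower, and none of the 8 passed the threshold of 0.05 when limma p-values were adjusted over all genes (0.0077% of genes were lower and passed). The median log2 fold change of the 8 was -0.43, and that of all genes 0.01. At an unadjusted limma p under 0.05 there were 5 of 8, all lower: Icam1, Itgal, Itgb2, Vcam1 and Selplg, where 5.74% of all genes were lower and 5.22% higher at that level (of any size, 52.9% of genes were higher). Over all genes this level held 746 lower and 678 higher genes, or 953 and 464 after rescaling to a common 75th percentile. The balance turned with a minimum mean of 100, to 351 lower and 586 higher, and without library A, to 743 lower and 905 higher. Without library C it was near even, at 699 lower and 701 higher. Without library H there were 3 of 8, Icam1, Itgal and Itgb2, against 4.28% of all genes lower and 3.72% higher, and the median was -0.33. Under the count models edgeR and DESeq2, 0 of the 8 passed adjustment over all genes, while 4 and 5 of them were lower at an unadjusted p under 0.05. Over all genes edgeR had 6.15% lower and 4.42% higher at that level, and DESeq2 5.49% and 4.71%. After adjustment DESeq2 called 0.549% of all genes lower and 0.267% higher, and its adjusted p for Icam1 was 0.0732, or 0.300 without H.

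**Figure D2:**
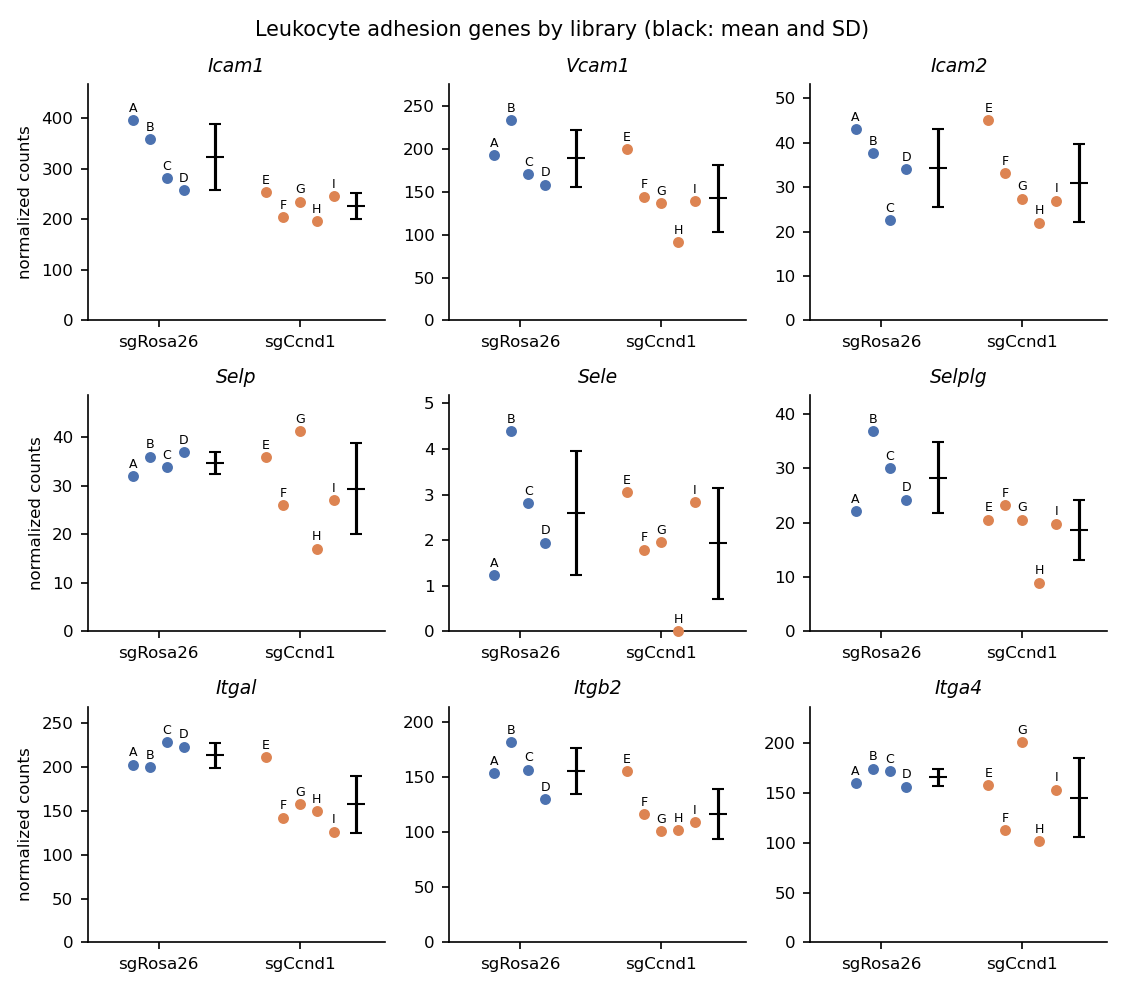
Normalized counts (vertical axis, from 0) of each adhesion gene in the 4 sgRosa26 libraries (A to D) and 5 sgCcnd1 libraries (E to I), with the mean and SD in black. Icam1 is the gene whose groups do not overlap, and library H is the lowest of all 9 libraries for Icam1, Vcam1, Icam2, Selp, Selplg, Itga4 and Sele.

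Among the ligands on the vessel wall, Icam1 differed most clearly. Icam1 (Entrez 15894, chromosome 9, 21015985 to 21028817, plus strand, GRCm38) encodes the ligand of LFA1 that cytokines induce on endothelium and on other cells. It had 396, 359, 282 and 257 normalized counts in the controls (A to D), and 255, 204, 235, 197 and 246 in E to I. Every sgCcnd1 library lay below every control, but the lowest control, D, and the highest sgCcnd1 library, E, were close. The groups did not overlap in this way, with sgCcnd1 lower, in 1.97% of all genes tested, and among the 8 adhesion genes Icam1 alone had it. Without H these shares were 2.29% lower and 2.39% higher, and Icam1 was again the 1 gene of the 8. The mean went from 323 ± 64.8 (SD, n = 4) to 227 ± 25.5 (SD, n = 5), 70.3% of the control level. On the log2 scale the difference was -0.49 (standard error 0.14, 95% interval from -0.79 to -0.19, limma adjusted p = 0.266), and Icam1 ranked 172 of 12993 genes by p. Without library H it was -0.44 (limma adjusted p = 0.530).

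Vcam1 (Entrez 22329, chromosome 3, 116109949 to 116129688, minus strand), which encodes the ligand of VLA4, had 193, 233, 171 and 158 normalized counts in A to D and 200, 144, 137, 91.0 and 139 in E to I. Libraries F to I lay below the lowest control, and E lay among the controls. The mean went from 189 ± 32.9 (SD, n = 4) to 142 ± 38.6 (SD, n = 5), a log2 fold change of -0.43 with a 95% interval from -0.85 to -0.02 (limma adjusted p = 0.437). Without H the log2 fold change was -0.29, and the interval, -0.63 to 0.06, took in 0. Icam2 (Entrez 15896, chromosome 11, 106377656 to 106388075, minus strand) encodes a ligand of LFA1 that resting endothelium shows constantly. It had 43.0, 37.7, 22.5 and 34.0 normalized counts in A to D and 45.0, 33.1, 27.4, 21.99 and 27.0 in E to I. The groups overlapped through their whole range. Its log2 fold change of -0.15 had a 95% interval from -0.68 to 0.37 (limma adjusted p = 0.855), which takes in both 0 and the size seen for Icam1, and libraries held only 19 to 59 Icam2 reads. Its log2 fold change without H was -0.04.

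Both selectins were scarce, P-selectin at about the level of its ligand Selplg. Selp (Entrez 20344, chromosome 1, 164115264 to 164150026, plus strand) had 32.0, 35.9, 33.8 and 36.9 normalized counts in A to D and 35.8, 26.0, 41.1, 17.0 and 27.0 in E to I. The controls lay close together, with a coefficient of variation of 6.38%, below the 17.1% that counting error alone gives at 141 reads in 4 libraries. The sgCcnd1 libraries spread around them on both sides (31.9%, against 19.5% from counting). The log2 fold change was -0.29 with a 95% interval from -0.80 to 0.22 (limma adjusted p = 0.670), and -0.11 without H. Markers of platelets, which also carry P-selectin, summed to 61.5 to 104 normalized counts in sgRosa26 and 65.3 to 91.0 in sgCcnd1, with 2 of 3 tested lower. Gp9 was at 0 in H and Treml1 in at least 1 sgCcnd1 library.

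Sele (Entrez 20339, chromosome 1, 164048234 to 164057677, plus strand) was almost unread, with 1, 5, 3 and 2 reads in A to D and 4, 2, 2, 0 and 2 reads in E to I. That is 2.59 ± 1.36 normalized counts in sgRosa26 (SD, n = 4) and 1.93 ± 1.21 in sgCcnd1 (SD, n = 5), and no difference was detectable (exact two-sided permutation p = 0.524, where 0.00794 is the smallest possible). The 0 in library H allows up to 3 reads. Selplg (Entrez 20345, chromosome 5, 113818536 to 113832644, minus strand), the leukocyte partner of both selectins, had 22.1, 36.8, 30.0 and 24.3 normalized counts in A to D and 20.6, 23.3, 20.6, 8.996 and 19.9 in E to I. Of the 5 sgCcnd1 libraries 4 were below the lowest control, and H was far below the rest. The mean went from 28.3 ± 6.58 (SD, n = 4) to 18.7 ± 5.56 (SD, n = 5), or 21.1 ± 1.51 without H. The log2 fold change was -0.61 with a 95% interval from -1.22 to -0.00 (limma adjusted p = 0.452), the largest and least precise of the 8 with all libraries. Without H it was -0.39, smaller than for Itgal and Icam1.

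The LFA1 subunits had like differences. Itgal (Entrez 16408, chromosome 7, 127296260 to 127335138, plus strand), the alpha subunit found on lymphocytes and most other leukocytes, had 203, 199.8, 228 and 223 normalized counts in A to D and 211, 142, 158, 149.9 and 126 in E to I. Library E lay among the controls, and F to I lay well below all of them. The mean went from 214 ± 14.2 (SD, n = 4) to 157 ± 32.2 (SD, n = 5), a log2 fold change of -0.46 with a 95% interval from -0.75 to -0.16 (limma adjusted p = 0.292), and -0.44 without H. Itgb2 (Entrez 16414, chromosome 10, 77530252 to 77565708, plus strand), the beta subunit that LFA1 shares with the myeloid integrins of Itgam and Itgax, had 154, 181, 157 and 130 normalized counts in A to D and 156, 116, 101, 102 and 109 in E to I. Again F to I lay below all controls and E among them. The mean went from 156 ± 21.0 (SD, n = 4) to 117 ± 22.5 (SD, n = 5), a log2 fold change of -0.42 with a 95% interval from -0.74 to -0.10 (limma adjusted p = 0.337), and -0.38 without H.

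Itga4 (Entrez 16401, chromosome 2, 79255426 to 79333123, plus strand), the alpha subunit of VLA4, had 159.8, 174, 172 and 156 normalized counts in A to D and 158, 113, 201, 102 and 153 in E to I. F and H were low, G was the highest of all 9 libraries, and the groups overlapped. The spread was 5.34% of the mean in sgRosa26 and 27.1% in sgCcnd1, where counting error gives 7.81% and 8.57%. The log2 fold change was -0.23 with a 95% interval from -0.61 to 0.15 (limma adjusted p = 0.655). Without H it was -0.11. Itgb1, which encodes the other subunit of VLA4 and is made by most cells of the liver, had 2614 ± 228 normalized counts in sgRosa26 (SD, n = 4) and 2892 ± 166 in sgCcnd1 (SD, n = 5), 0.15 higher on the log2 scale (limma adjusted p = 0.533).

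**Figure D3:**
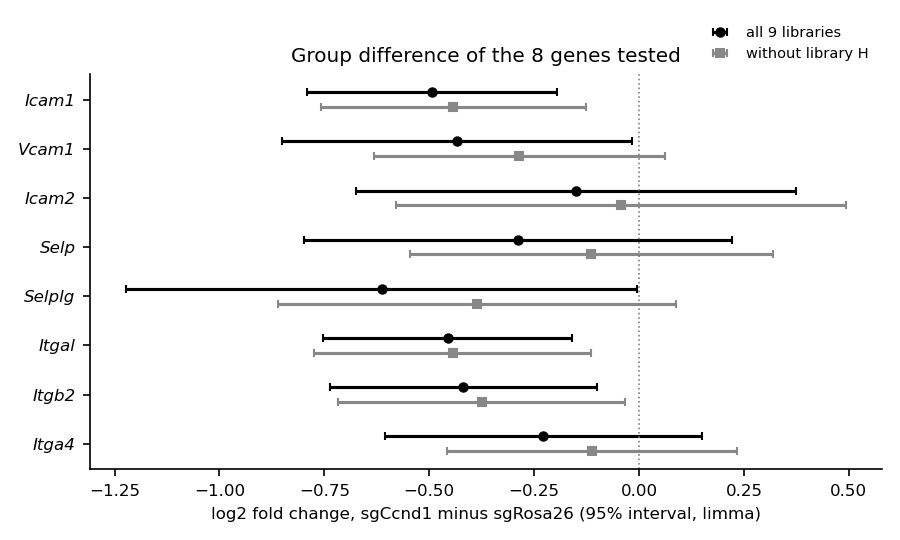
Log2 fold change of the 8 genes tested (horizontal axis, sgCcnd1 minus sgRosa26) with 95% intervals from limma, for all 9 libraries (black circles) and without library H (grey squares). All estimates lie below 0, and without H the intervals of Icam1, Itgal and Itgb2 still leave out 0.

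Single libraries of sgCcnd1 set much of the spread. Library H was the lowest of the 9 for 6 of the 8 genes tested, and E was the highest of its group for 5 of the 8. In E the targeted gene Ccnd1 was also at its highest within the group, at 428 normalized counts. Its summed level of the 9 adhesion genes, 1083 normalized counts, lay within the control range of 1023 to 1262, whereas H had 689.7. The part of E or H in the group difference beyond the values without them was not tested.

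Markers of leukocytes were lower alongside the adhesion genes. For this and the lists below, 47.1% of all genes tested were lower. At an unadjusted limma p under 0.05, 5.74% of all genes were lower and 5.22% higher (4.28% and 3.72% without H). Of 10 pan-leukocyte markers 9 were lower and 7 had an unadjusted limma p under 0.05 (0 passed adjustment over all genes), with a median log2 fold change of -0.44, or -0.44 without H. Their summed level was 2821 to 3575 normalized counts in sgRosa26 and 2619 to 3164 in sgCcnd1, and none was at 0. Laptm5 and Cd52 had log2 fold changes of -0.56 and -0.80 (limma adjusted p = 0.227 and 0.253). With all 9 libraries DESeq2 called these 2 lower (adjusted p = 0.0235 and 0.0419). Lcp1, named after its values were seen, made up much of that sum and had a log2 fold change of 0.08, or 0.05 without H. Ptprc, which encodes the leukocyte antigen CD45, had 204 ± 19.7 normalized counts in sgRosa26 (SD, n = 4) and 153 ± 30.4 in sgCcnd1 (SD, n = 5), a difference of -0.43 in log2 (limma adjusted p = 0.338).

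Leukocyte-side genes were also set against leukocyte markers. Against Ptprc in the same library the group means lay close for Itgal and Itgb2. Itgal stood at 106% ± 16.1 of the Ptprc level in sgRosa26 (SD, n = 4) and at 104% ± 20.2 in sgCcnd1 (SD, n = 5). Itgb2 stood at 76.1% ± 6.498 and 78.0% ± 18.6, Itga4 at 81.5% ± 6.55 and 96.0% ± 24.3, and Selplg at 13.9% ± 2.94 and 12.8% ± 5.81 of Ptprc. In each case the groups overlapped. Against the summed pan-leukocyte markers, Itgal, Itgb2 and Selplg were lower in sgCcnd1, at 81.8%, 84.1% and 75.7% of the control ratio, with 3, 3 and 4 of 5 libraries below all controls. Itga4 was at 98.7% by that measure. Lcp1 carries most of that sum, and without it (a choice made after seeing the data) the ratios of Itgal, Itgb2, Itga4 and Selplg were at 101%, 104%, 123% and 94.2% of control. These ratios are of normalized counts not corrected for length and are given without a test. Itgal relative to Itgb2 was likewise 139.8% ± 25.7 and 135% ± 16.9.

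T cell and NK cell markers, whose cells carry LFA1, were lower in 8 of the 8 tested, with a median of -1.24, or -1.004 without H. Of them 6 had an unadjusted limma p under 0.05, or 2 without H, and 0 passed adjustment over all genes. Their sum ran from 129 to 369 normalized counts in sgRosa26 and from 62.0 to 240.1 in sgCcnd1, the lowest in H. Cd8b1 was at 0 in H and Ncr1 in at least 1 sgCcnd1 library. For Cd3e, of the T cell receptor complex, it was -1.52 in log2 (limma adjusted p = 0.321). Monocyte and dendritic cell markers were lower in 8 of 8 tested (median -0.46, sums of 298 to 417 and 194 to 318). Neutrophil markers were lower in 4 of 4 (median -0.51, sums of 137 to 241 and 94.0 to 161). B cell and plasma cell markers were lower in 7 of 7 (median -0.41, sums of 257 to 471 and 182 to 438). Without H these 3 lists had 7 of 8, 3 of 4 and 6 of 7 lower, with medians of -0.38, -0.45 and -0.48. At an unadjusted limma p under 0.05 they had 2, 1 and 1, all lower (1, 1 and 1 without H), and 0 passed adjustment. Ly6g, a neutrophil marker, was nearly unread in both groups, with a mean of 0.219 normalized counts in sgRosa26 and 0 in sgCcnd1. The part of these cells in the values of Itgal, Itgb2, Itga4 and Selplg was not tested.

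Endothelial and Kupffer cell markers were read for the vessel-side genes. Of 12 markers of liver sinusoidal endothelium 9 were lower, 0 had an unadjusted limma p under 0.05, and the median was -0.07, or -0.01 without H. They summed to 4664 to 6749 normalized counts in sgRosa26 and 4636 to 6968 in sgCcnd1, with none at 0. Icam1 was 5.63% ± 1.07 of that sum in sgRosa26 (SD, n = 4) and 4.15% ± 0.323 in sgCcnd1 (SD, n = 5), and in control C it was as low as in the sgCcnd1 group. Vcam1 was 3.30% ± 0.630 and 2.55% ± 0.375 of the sum, and Icam2 0.609% ± 0.186 and 0.555% ± 0.0909. Venous and other endothelial markers were lower in 5 of 8 (median -0.23, or -0.17 without H, sums of 738 to 999.6 and 646 to 894), and Plvap alone had an unadjusted limma p under 0.05 (log2 fold change -0.30, adjusted p = 0.401), with 0 such genes without H. Kupffer cell and macrophage markers, of which 8 of 11 were lower (median -0.17, or -0.24 without H), summed to 3526 to 4673 and 3260 to 4075. At an unadjusted limma p under 0.05 there were 3, all lower. Cd68, a lysosomal protein of macrophages, had a log2 fold change of -0.71 with 5 of 5 sgCcnd1 libraries below all controls (limma adjusted p = 0.245). Such a gap occurred in 1.97% of all genes, and DESeq2 called Cd68 lower with all 9 libraries (adjusted p = 0.0282). Clec4f and Cd5l were at -0.06 each, and Adgre1, Timd4 and Marco at 0.005, 0.10 and 0.11. Without H these 5 were at 0.02, -0.08, -0.16, -0.20 and -0.46. Vcam1 relative to the Kupffer sum was 4.82% ± 1.16 and 3.99% ± 0.949. Both pairs of ratios overlapped between groups.

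The other genes of the pathway were read from 5 lists. Further adhesion receptors of leukocytes were lower in 9 of 12 tested, with a median of -0.43 (-0.34 without H), 3 of them lower and 1 higher at an unadjusted limma p under 0.05 (2 and 1 without H). Cd44, the hyaluronan receptor, had a log2 fold change of -0.51 and Itgax, the alpha subunit of a myeloid partner of Itgb2, of -0.78 (limma adjusted p = 0.388 and 0.417), which for Itgax was -0.50 without H. Itgb3, the beta subunit of the platelet fibrinogen receptor, went the other way: it had 36.5 ± 5.65 normalized counts in sgRosa26 (SD, n = 4) and 50.7 ± 5.98 in sgCcnd1 (SD, n = 5), with 5 of 5 sgCcnd1 libraries above all controls (log2 fold change 0.47, limma adjusted p = 0.334). Such a gap upwards occurred in 1.92% of all genes.

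Further endothelial adhesion and junction molecules had a median of -0.05 (-0.02 without H), with 7 of 11 tested lower and 1 at an unadjusted limma p under 0.05 (0 without H). That was Cd34 (log2 fold change -0.67, limma adjusted p = 0.445), and the junction gene Jam2 and Mcam followed at -0.26 and -0.24 (limma adjusted p = 0.561 and 0.627). Pecam1 and Cdh5, which hold endothelial cells together, were at -0.07 and -0.16, or -0.01 and -0.12 without H. Madcam1, the gut addressin, and Icam5 had means under 1 normalized count, and Glycam1 had no reads.

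Genes of selectin ligand synthesis had a median of -0.01 (-0.02 without H), with 5 of 9 tested lower and 2 of them at an unadjusted limma p under 0.05 (1 without H). Gcnt1, the enzyme that branches the sugars on PSGL1, had 17.3 ± 3.96 normalized counts in sgRosa26 (SD, n = 4) and 9.67 ± 2.65 in sgCcnd1 (SD, n = 5), a difference of -0.79 in log2 (limma adjusted p = 0.338). Tpst2, which sulfates tyrosines, was at -0.23 (limma adjusted p = 0.373) with 5 of 5 sgCcnd1 libraries below all controls, a gap seen in 1.97% of all genes. The sialyltransferase gene St3gal3 was at -0.21 (limma adjusted p = 0.459). Fut7 and Fut4, the fucosyltransferases of leukocytes, lay under the level needed for testing, with 2.29 and 5.88 normalized counts in sgRosa26.

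Genes of integrin activation had a median of -0.06, with 8 of 13 tested lower and 3 lower and 1 higher at an unadjusted limma p under 0.05 (2 and 0 without H). Apbb1ip, which encodes RIAM, the adaptor between RAP1 and talin, had 65.0 ± 15.7 normalized counts in sgRosa26 (SD, n = 4) and 34.5 ± 9.22 in sgCcnd1 (SD, n = 5), with 5 of 5 sgCcnd1 libraries below all controls. Its log2 fold change was -0.91, with a limma adjusted p of 0.253 and, with all 9 libraries, a DESeq2 adjusted p of 0.0368. A gap downwards like that of Apbb1ip occurred in 1.97% of all genes. Fyb, another adaptor of leukocytes, was at -0.38 and the GTPase gene Rap1b at 0.33 (limma adjusted p = 0.412 and 0.409). Talin itself (Tln1), made in most cells, was at -0.06.

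Cytokine receptors and NF-kB regulators known to control Icam1, Vcam1 and Sele had a median of -0.16, with 10 of 14 tested lower and 0 at an unadjusted limma p under 0.05. The 3 with the smallest p were Tnfrsf1b, Nfkbie and Il1b, with log2 fold changes of -0.24, -0.28 and -0.48 (limma adjusted p from 0.538 to 0.573), or -0.16, -0.18 and -0.51 without H. Tnf itself, at 9.88 ± 3.94 normalized counts in sgRosa26 (SD, n = 4) and 5.27 ± 2.17 in sgCcnd1 (SD, n = 5), was too low to be tested.

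**Figure D4:**
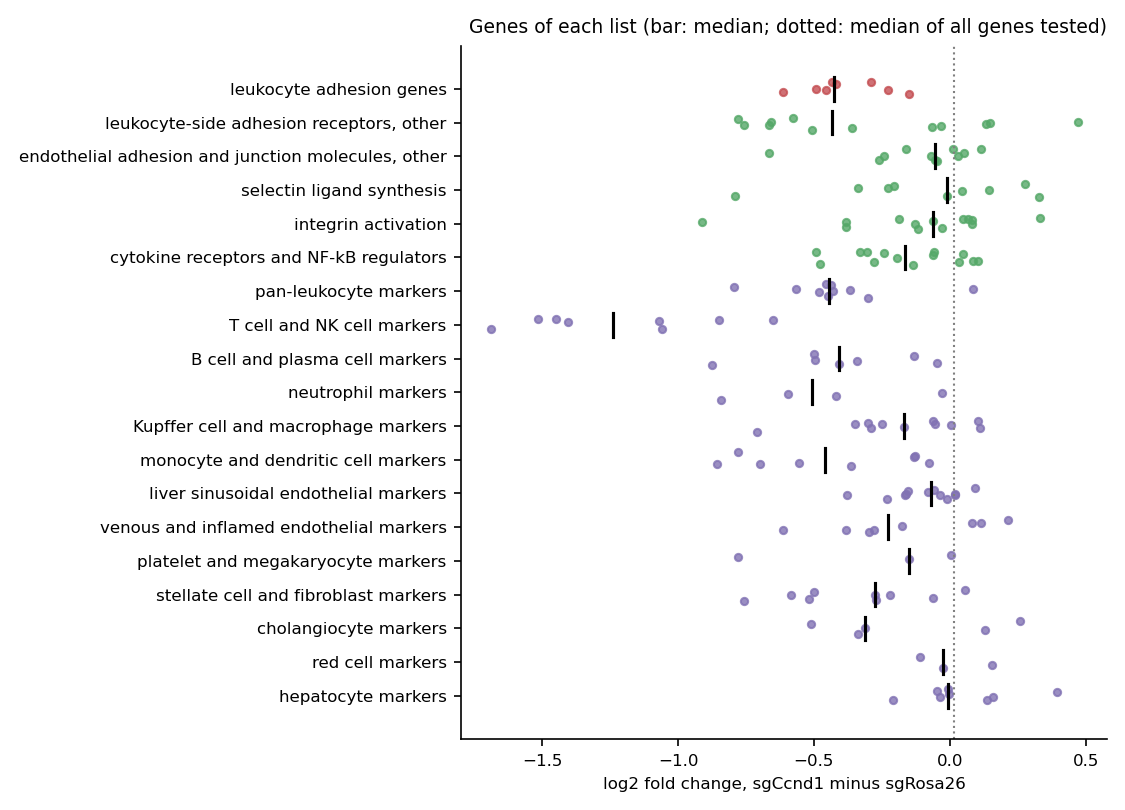
Log2 fold change (horizontal axis) of each tested gene of the 8 adhesion genes (red), the 5 pathway lists (green) and the 13 cell marker lists (violet), with each list's median as a black bar and the median of all genes as a dotted line. The median is -0.43 for the adhesion genes (-0.33 without library H), -0.44 for pan-leukocyte markers (-0.44 without H) and -1.24 for T cell and NK cell markers.

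Binding partners were compared across the 9 libraries in 4 pairs. Itgal and Itgb2, which form LFA1, had a Pearson r of 0.78 (exact permutation p = 0.0214, 0.0427 adjusted over the 4 pairs) and a Spearman rho of 0.63 (exact permutation p = 0.0760, adjusted 0.152). Icam1 and Itgb2 had r = 0.79 (exact permutation p = 0.00939, adjusted 0.0376) and rho = 0.78 (exact permutation p = 0.0172, adjusted 0.0689). With each group centred on its own mean these r values were 0.51 and 0.53 and no longer passed (permutation within groups, exact p = 0.255 and 0.157, both 0.255 when adjusted). Without the 2 libraries farthest from the median of the first gene, r was 0.79 for Itgal with Itgb2 (exact permutation p = 0.0450) and 0.72 for Icam1 with Itgb2 (exact permutation p = 0.0712).

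Vcam1 and Itga4 had r = 0.62 (exact permutation p = 0.0810, adjusted 0.0810) and rho = 0.45 (exact permutation p = 0.230, adjusted 0.291), and without B and H r was 0.06. Selp and Selplg had r = 0.76 (exact permutation p = 0.0413, adjusted 0.0550) and rho = 0.40 (exact permutation p = 0.291, adjusted 0.291), and without F and H r was 0.18. With H alone left out, r was 0.20 and 0.19, so both of these values rested on H. Without B alone the first was 0.59, and without F alone the second was 0.80. The genes of a pair come from the same library and share its depth and cell makeup.

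**Figure D5:**
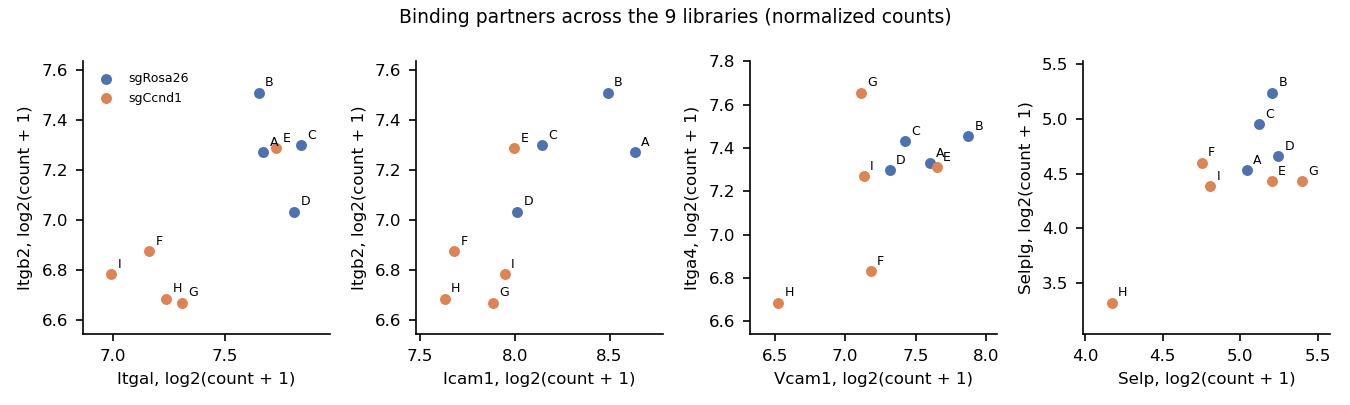
Log2(normalized count + 1) of 4 pairs of binding partners, the first gene on the horizontal axis and the second on the vertical axis, for 4 sgRosa26 and 5 sgCcnd1 libraries. In the left pair of panels F to I lie at the low end of Itgb2 with E among the controls on that axis, and in the right pair H lies alone at the lower left.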

How the data were processed

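Bulk poly(A) RNA-seq of mouse liver was used, 4 sgRosa26 and 5 sgCcnd1 libraries. Per the submitters' processing notes, the authors used Trim Galore 0.6.7, HISAT2 2.2.1, featureCounts 2.0.3 and DESeq2 2.11.40.8 with build mm10 (GRCm38). The annotation and the use of strand are not given in the sources used here, so reads of the antisense or opposite-strand genes that overlap Icam1, Vcam1, Selp and Itga4 cannot be told apart from theirs. The values deposited are a signal, normalized counts: whole multiples (within 0.01 of a whole number) of the value of 1 read in 100% of cases, as when reads are divided by a size factor. In library H that value is too near 1 for an automatic check, so count models were also run without H. Column names give the guide and an animal but no replicate number. No 2 libraries agreed within sampling noise (chi-square over degrees of freedom from 13.1 to 42.4), so all were kept.

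The log2(normalized count + 1) of the deposited values was tested with limma 3.58.1 (lmFit, eBayes with trend, two-sided, R 4.3.3) for 12993 genes with a mean of at least 10, adjusted over all genes by Benjamini-Hochberg at 0.05. The scale makes changes of scarce genes look smaller. Alternatives were pseudocounts of 0.1 and 10, no filter, a minimum mean of 100, quantile and 75th percentile scaling, edgeR 4.0.16 and DESeq2 1.42.0 on the recovered reads, and leaving out each library. The procedures were tested on simulated data. Exon lengths and gene positions came from GENCODE M21 (GRCm38). Intervals and floors from depth cover counting error only. The members and lists were chosen with earlier results of these data known. Named were the 9 members, Ccnd1, the 3 genes of each pathway list and, for some cell lists, 1 or 2 with the smallest p (for the others only the range), and the 3 genes most like each of Icam1, Vcam1, Itgb2 and Itgal. Others named are partners or known members of a list.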

Additional observations from a re-analysis of the deposited data

Results flagged for a closer look

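Of 20 groups of values examined for a library far from the others of its group, 3 had one, where chance gives about 1. Selplg in library H of sgCcnd1 had 8.996 normalized counts, against 19.9 to 23.3 in the other 4. Itgb2 in library E of sgCcnd1 had 156 normalized counts, against 101 to 116 in the other 4, a level within the range of the controls. Depth in library A of sgRosa26 was 12.2 M reads (M, mega), while B, C and D had 16.2 to 16.6 M.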

How the results depend on the processing

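No paired analysis was possible because no replicate number stands in the column names. Each of the 8 genes tested kept its direction, lower in sgCcnd1, and stayed short of the adjusted threshold in all of its 19 or 20 alternatives. The log2 fold change ranged from -0.59 to -0.39 for Icam1 (adjusted p from 0.0732 to 0.563), -0.57 to -0.38 for Itgal, -0.53 to -0.34 for Itgb2, -0.57 to -0.28 for Vcam1, -0.72 to -0.39 for Selplg, -0.35 to -0.09 for Itga4, -0.42 to -0.09 for Selp and -0.33 to -0.02 for Icam2. With a minimum mean of 100, Icam2, Selp and Selplg have no value.

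The number of the 8 with an unadjusted p under 0.05, 5 by limma, was 3 with edgeR and 3 with DESeq2 without library H (both chosen after seeing the data) and 3 to 4 when a library was left out, 3 without B, H or I. Over all genes the same level held 593 lower and 413 higher genes with edgeR without H, 505 and 430 with DESeq2 without H, and with limma 529 and 488 without B, 558 and 485 without H, and 664 and 506 without I. Over all genes, limma called 1 lower and 0 higher. DESeq2 called 70 lower and 34 higher, or 27 and 11 without H. The count lower was 2 with quantile normalization (Ccnd1 and Ly6e), 0 with edgeR without H, and 0 to 2 when a library was left out: 0 without B, D, F, H or I, and 2 without E or G, the second being Adrb3 or Baiap2. In the limma fits with any library left out, the count higher was 0. The cause of the gap between the tools was not tested. Where a library is left out, fewer samples enter.

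For the partner pairs, centring on group means gave r = 0.51 for Itgal with Itgb2 and 0.53 for Icam1 with Itgb2, neither past the threshold. Leaving out a library gave 0.75 to 0.85 and 0.71 to 0.84, the first past the threshold only without G and the second only without A, E or G, 0.20 to 0.84 for Vcam1 with Itga4, and 0.19 to 0.86 for Selp with Selplg, the lowest of both without H. These latter pairs passed without G, and the last also after 75th percentile scaling (r = 0.78). Depth limits Sele, with 0 to 5 reads per library, and Icam2, Selp and Selplg, for which counting error alone gives 17.1% to 24.7% per library.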

Other observations

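The genes whose pattern over the 9 libraries was most like that of 4 adhesion genes were found by Pearson r of log2 values among the 12993 genes tested. They are the best of many and share the group difference, so no test is given. Most like Icam1 were Csf1 (r = 0.97), which encodes a macrophage growth factor, Fam171a2 (r = 0.96) and Ccr2 (r = 0.96), the receptor of inflammatory monocytes. Csf1 had a mean of 249.6 normalized counts in sgRosa26 and 177 in sgCcnd1. Most like Vcam1 were Gimap4 (r = 0.97), a lymphocyte GTPase gene, and the MHC class II genes H2-Eb1 (r = 0.97) and H2-Ab1 (r = 0.97). With values centred on group means, r with Vcam1 was still 0.97 for H2-Eb1 and for H2-Ab1. Most like Itgb2 were Arhgef2 (r = 0.98), Fermt3 (r = 0.98) and Ccl5 (r = 0.97), and centred on group means these were 0.99, 0.96 and 0.95. Fermt3 encodes kindlin-3, which binds the tails of beta integrins in blood cells, and its mean was 83.9 normalized counts in sgRosa26 and 64.5 in sgCcnd1. Most like Itgal were Adrb3 (r = 0.98), Traf3ip2 (r = 0.97) and Treml4 (r = 0.96). None of these 12 genes passed the limma test adjusted over all genes (adjusted p from 0.253 to 0.519).

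Of the other marker lists, stellate cell and fibroblast markers were lower in 8 of 9 tested (median -0.27, or -0.26 without H), with Pdgfrb at -0.50 (limma adjusted p = 0.333). Cholangiocyte markers were lower in 3 of 5 (median -0.31, or -0.19 without H), with Sox9 at -0.51 (limma adjusted p = 0.346). Red cell markers had a median of -0.03 over 3 tested and hepatocyte markers of -0.01 over 8, and without H these medians were 0.11 and 0.07.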
